A study of Mus musculus with 18 samples.

Results

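Glutathione S-transferases are enzymes that join the tripeptide glutathione to reactive, electron-poor compounds, among them lipid aldehydes, quinones and epoxides made from foreign chemicals. The soluble enzymes fall into classes named by Greek letters, and several are under the control of the transcription factor NRF2 through antioxidant response elements in their regulatory DNA. In the airways they stand between inhaled or blood-borne electrophiles and the DNA and protein of the epithelium. The 10 genes followed here are Gsta2, Gsta3 and Gsta4 of the alpha class, Gstm1, Gstm2, Gstm3, Gstm4 and Gstm5 of the mu class, Gstp1 of the pi class and Gsto1 of the omega class.

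They were found by symbol among the 18193 genes that a probe set of the array names alone. Of the 45101 probe sets 16 named 1 of the 10, and each gene was read from the one with the highest mean over all 18 arrays. All 10 passed the filter on low signal, which left 13434 genes to be tested. For near-identical copies the reading is uncertain. Gsta1 and Gstp2, close relatives of Gsta2 and Gstp1, had no probe set of their own name.

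Each array held RNA of 1 female B6C3F1 mouse, a hybrid strain, taken from the right lung lobe. The mice were 18 weeks old after 13 weeks of dosing that began at 5 weeks of age, and 6 groups of 3 were compared. Feed groups were dosed 7 days a week and received plain rodent chow (feed control), 1,5-naphthalenediamine (NDA) at 2000 ppm, N-(1-naphthyl)ethylenediamine dihydrochloride (NEDD) at 2000 ppm or pentachloronitrobenzene (PCNB) at 8187 ppm. Gavage groups were dosed 5 days a week with 5 ml/kg of corn oil alone (corn oil control) or with 2,3-benzofuran at 240 mg/kg. The labels class NDA and benzofuran as positive and NEDD and PCNB as negative lung carcinogens, and the study asked whether expression at 13 weeks foretells the tumour outcome of long rodent bioassays. Each class label rests on 2 chemicals, each at 1 dose and 1 time, in 1 sex of 1 strain.

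Signals are log2 values, in which a difference of 1 is 2-fold. Array medians ran from 5.68 to 5.8, and 7 of 7 markers of alveolar type 2 cells lay above the array median in every group, while of 6 liver markers 1 or 2 did. The array of benzofuran animal 10 stood apart from the other 17. On the first principal component it lay at 46.6, the others between -11.8 and 7.8, and its weight in a fit with array weights was 0.12. Its actin probe sets differed by 0.906 between the 3' and the 5' end, those of the others by 0.333 to 0.726. Counts of members called under benzofuran are therefore given with and without this array, and other benzofuran results in part. Every difference below is a difference of group means from limma with its SE, and a gene is said to have risen or fallen where the p-value adjusted over all 13434 genes was under 0.05.

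The promoters of 5 members are printed here because they are the ones that held a match to a motif searched. Of these Gsta2, Gsta3, Gstm1 and Gstp1 rose under both NDA and benzofuran and Gstm5 passed the test under neither. No match was found for Gstm2, Gstm3, Gstm4 and Gsto1, of which Gstm3 and Gsto1 also rose under both chemicals. Each line gives the 150 bases before the annotated start of RefSeq on assembly GRCm38.p6, in the direction of the gene. They are chr9:78347146-78347295 on the minus strand for Gsta2, chr1:21240435-21240584 on the plus strand for Gsta3, chr3:108017974-108018123 on the minus strand for Gstm1, chr3:107895704-107895853 on the plus strand for Gstm5 and chr19:4037913-4038062 on the minus strand for Gstp1. Capitals mark matches to the cores of the antioxidant response element (TGACNNNGC), to which NRF2 binds, and the xenobiotic response element (GCGTG), to which the aryl hydrocarbon receptor binds, and to an AP-1 type element (TGANTCA).
Gsta2: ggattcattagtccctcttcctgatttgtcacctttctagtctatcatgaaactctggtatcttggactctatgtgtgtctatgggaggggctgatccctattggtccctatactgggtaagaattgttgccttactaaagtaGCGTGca
Gsta3: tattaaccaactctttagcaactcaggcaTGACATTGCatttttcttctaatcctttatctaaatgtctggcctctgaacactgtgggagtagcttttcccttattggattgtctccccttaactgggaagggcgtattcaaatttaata
Gstm1: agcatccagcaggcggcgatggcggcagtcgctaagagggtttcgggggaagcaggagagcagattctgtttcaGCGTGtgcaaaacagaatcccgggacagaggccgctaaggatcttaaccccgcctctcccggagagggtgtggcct
Gstm5: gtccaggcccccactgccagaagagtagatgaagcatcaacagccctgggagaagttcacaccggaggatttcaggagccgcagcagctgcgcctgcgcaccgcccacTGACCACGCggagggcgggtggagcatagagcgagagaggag
Gstp1: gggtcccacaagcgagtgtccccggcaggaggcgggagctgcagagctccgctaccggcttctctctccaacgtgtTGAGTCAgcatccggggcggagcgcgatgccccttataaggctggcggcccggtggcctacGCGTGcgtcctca

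Over the 250 bases before the start, on both strands, 9 of the 10 members had a promoter in the table, 11 promoters in all, and Gsta4 had none. The antioxidant response element core was found in 2 of the 9. In Gsta3 it read TGACATTGC and began 121 bases before the start, and in Gstm5 it read TGACCACGC and began 42 bases before it. Of all 27025 genes with a promoter 11.5% held this core (10.2% of the 32851 promoters). The xenobiotic response element core was found in 4 members, beside 30.9% of all genes (28.2% of promoters). It began 7 bases before the start in Gsta2, 13 in Gstp1, 76 in Gstm1 (231 from the other annotated start of that gene) and 171 and 38 on the opposite strand in Gstm5, where the nearer match lies inside the TGACCACGC. The AP-1 type element was searched for after the sequences had been seen and occurred in Gstp1, 74 bases before the start, and in Gstm5, 176 bases before it, beside 7.82% of all genes (6.75% of promoters). In Gstp1 it is followed by gc, and TGAGTCAGC departs from TGACNNNGC only in the base after TGA. A core with G at that base was not searched for, so the count of 2 members does not cover such sites. A match of letters is a description of these windows. Gstm5 held all 3 kinds of match and Gsta2 held 1 match. Sites farther than 250 bases before the start were not searched. The part of these elements in the differences was not tested.

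**Figure D1:**
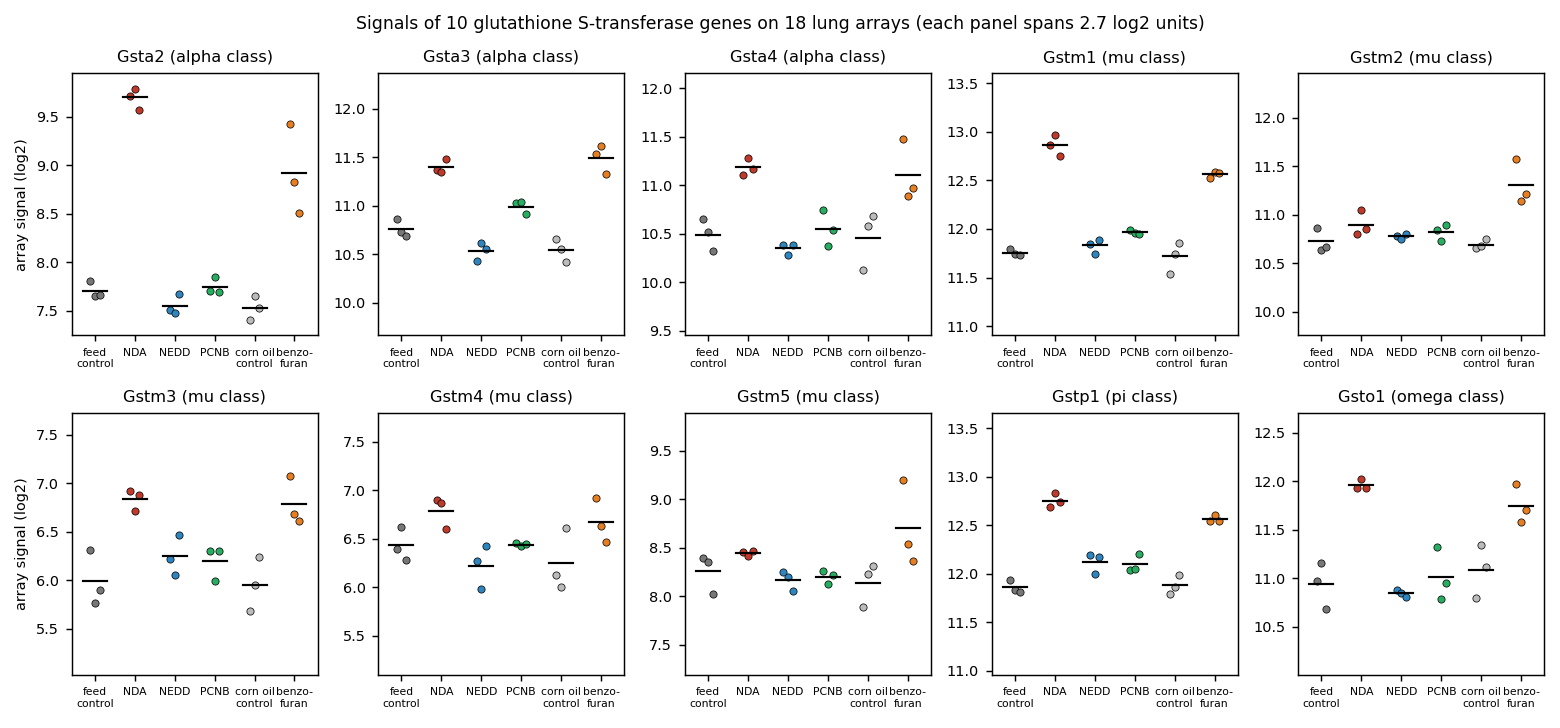
Array signal (log2) of each of the 10 genes on the 18 arrays, 1 point per animal, with a bar at the mean of each group of 3. Each panel spans the same number of log2 units, but levels are not comparable between genes. In Gsta2, Gsta3, Gsta4, Gstm1, Gstm3, Gstp1 and Gsto1 all 6 NDA and benzofuran points lie above the other 12.

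Under NDA 7 of the 10 transferases rose in lung. All 3 alpha class genes rose, as did Gstp1, Gsto1 and 2 of the 5 mu class genes, and none fell. Among all genes tested 1.37% were called in this comparison and 1.12% were called higher. The median of the 10 differences was 0.77, that of all genes -0.02. In whole lung tissue more cells of a type and more RNA per cell cannot be told apart, and this holds for every comparison here.

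Gsta2, an alpha class enzyme whose gene is a classical target of inducers of detoxification, moved the most. It read 7.81, 7.65 and 7.66 on the feed control arrays of animals 27, 28 and 29. On the NDA arrays of animals 2, 4 and 5 it read 9.72, 9.79 and 9.57. All 3 treated animals lay far above all 3 controls. The difference was 1.99 ± 0.16, which is 3.98-fold (adjusted p = 3.93e-07). Gsta3, an alpha class enzyme best known in mice for conjugating the epoxide of aflatoxin, read 10.86, 10.73 and 10.69 in the feed controls and 11.37, 11.35 and 11.48 under NDA. The groups did not overlap, and the difference was 0.64 ± 0.10 (1.56-fold, adjusted p = 0.000922). Gsta4, which conjugates hydroxynonenal, an aldehyde from oxidised lipids, read 10.65, 10.52 and 10.32 in the feed controls and 11.11, 11.28 and 11.17 under NDA. Its rise of 0.69 ± 0.16 (1.61-fold, adjusted p = 0.0339) was the least secure of the class. It missed the threshold when any 1 of the 6 arrays was left out, with differences between 0.60 and 0.77.

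The mu class was divided under NDA. Gstm1, its most studied member, read 11.79, 11.74 and 11.73 in the feed controls and 12.87, 12.97 and 12.75 under NDA. The groups were far apart, by 1.11 ± 0.09 or 2.16-fold (adjusted p = 5.57e-07). Gstm3 read 6.31, 5.77 and 5.90 in the feed controls and 6.92, 6.72 and 6.88 under NDA, a rise of 0.85 ± 0.17 (1.8-fold, adjusted p = 0.0106). Its signal was low, with a mean of 6.34 over 18 arrays beside array medians of 5.68 to 5.8. Its control animals were widely scattered, and the call was lost without feed control 28 or 29 or NDA 2 or 5, with differences between 0.74 and 0.83. The other 3 did not pass the test. Gstm2 read 10.86, 10.64 and 10.67 in the feed controls and 10.80, 11.05 and 10.85 under NDA, so that the groups overlapped (0.17 ± 0.11, 95% interval -0.06 to 0.41). Gstm4 overlapped too, with feed controls between 6.28 and 6.62 and NDA animals between 6.60 and 6.90 (0.36 ± 0.16, adjusted p = 0.42). For Gstm5 the NDA animals, between 8.42 and 8.47, lay just above the feed controls, between 8.03 and 8.40, with a difference of 0.18 ± 0.17 (adjusted p = 0.765). That made 8 of 10 members whose NDA arrays all lay above the controls, beside 9.48% of all genes.

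Gstp1 and Gsto1, the members of the pi and omega classes, both rose. Gstp1, the pi class enzyme, plentiful in many tumours and in airway epithelium, read 11.93, 11.83 and 11.81 in the feed controls and 12.69, 12.83 and 12.74 under NDA. The difference was 0.90 ± 0.09 (1.86-fold, adjusted p = 6.14e-06). Gsto1, the omega class enzyme, uses a cysteine in its active site and reduces dehydroascorbate and arsenic compounds rather than chiefly conjugating electrophiles. It read 10.97, 11.16 and 10.69 in the feed controls and 11.93, 12.03 and 11.93 under NDA. The treated animals were close together and above every control, by 1.02 ± 0.15 (2.03-fold, adjusted p = 0.000746). Gsta2, Gsta3, Gstm1, Gstp1 and Gsto1 kept the call whichever of the 6 arrays was left out.

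Markers of some cell types moved in the NDA lungs as well. Of 6 B and plasma cell markers 3 rose, Ighm by 3.78 ± 0.48, Jchain by 3.46 ± 0.48 and Mzb1 by 1.88 ± 0.27, and the mean of the list lay between 9.52 and 10.3 under NDA and between 7.65 and 8.55 in the feed controls. Of 6 alveolar macrophage markers 1 rose, the scavenger receptor gene Marco by 1.15 ± 0.16 (adjusted p = 0.000295), while the list mean was 9.4 to 9.55 under NDA and 9.32 to 9.64 in the feed controls. Of 8 club cell markers 1 rose, Upk3a by 1.40 ± 0.13. The differences of 6 of the 8 were negative, with a median of -0.12, and in 4 every NDA array lay below every control, while the secretoglobin Scgb1a1, the defining club cell product, differed by -0.15 ± 0.07 without passing the test. The mean of that list ran from 11.68 to 11.75 under NDA and from 11.52 to 11.77 in the feed controls. Of 8 ciliated cell markers, all above the array median, 0 passed in limma (3 reached an unadjusted p under 0.05), and their mean ran from 9.12 to 9.22 under NDA and from 8.71 to 9.09 in the feed controls. Actin differed between its ends by 0.333 to 0.432 under NDA and by 0.58 to 0.726 in the feed controls. With that difference as a covariate the count of members called was again 7. Of 7 alveolar type 1 markers 0 passed in limma (2 reached an unadjusted p under 0.05), but in 6 every NDA array lay below every control, and the list mean was 11.42 to 11.55 against 11.57 to 11.66. The median difference of this list was -0.16, that of all genes -0.02. The share of all genes with every NDA array below every control is not given here. The counts of 4 club cell and 6 alveolar type 1 markers are therefore descriptions with no background beside them. Of 7 endothelial markers 0 passed (1 reached an unadjusted p under 0.05) and all 7 differences were negative, with a list mean of 10.56 to 10.68 against 10.79 to 10.91. The part of cell composition in the rise of the transferases was not tested.

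Under benzofuran 8 of the 10 rose, again with none lower, where 1.73% of all genes were called and 1.56% were called higher. Gstm2 joined the 7 that had risen under NDA. The median difference was 0.67, that of all genes 0.05. Without benzofuran 10 the count was 5, namely Gsta2, Gsta3, Gstm1, Gstm2 and Gstp1, with a median of 0.62. Without corn oil control 22 it was 4, and in a fit on these 6 arrays alone it was 0. Of all 13434 genes 233 were called with all arrays and 67 without benzofuran 10. Without corn oil control 22 it was 37 of all genes, and in the fit on the 6 arrays alone 5.

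Gsta2 read 7.41, 7.65 and 7.53 on the corn oil arrays of animals 22, 24 and 25. On the benzofuran arrays of animals 6, 8 and 10 it read 8.83, 8.51 and 9.43. All 3 treated animals were higher than all controls, and animal 10 was the highest. The difference was 1.39 ± 0.16 (2.63-fold, adjusted p = 0.000105), and 1.14 ± 0.11 without animal 10 (adjusted p = 8.7e-05). Gsta3 read 10.66, 10.55 and 10.42 in the corn oil controls and 11.61, 11.33 and 11.53 under benzofuran. It rose by 0.94 ± 0.10 (1.92-fold, adjusted p = 7.1e-05), and here animal 10 lay between the other two. Gsta4 read 10.13, 10.58 and 10.68 in the corn oil controls and 10.89, 10.97 and 11.48 under benzofuran, a rise of 0.65 ± 0.16 (adjusted p = 0.0458). Without animal 10 it was 0.47 ± 0.15 and no longer called (adjusted p = 0.207).

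Gstm1 was among the steadiest of the 10 under benzofuran. It read 11.54, 11.74 and 11.86 in the corn oil controls and 12.59, 12.58 and 12.53 in the treated animals. Animal 10 did not differ from animals 6 and 8 in this gene, and the rise was 0.85 ± 0.09 (1.8-fold, adjusted p = 8.45e-05). Gstm2 read 10.66, 10.68 and 10.75 in the corn oil controls and 11.14, 11.22 and 11.58 under benzofuran. The groups were well apart, by 0.62 ± 0.11 (1.53-fold, adjusted p = 0.0105) and by 0.49 ± 0.10 without animal 10 (adjusted p = 0.0344). Leaving out corn oil control 22 ended this call (0.60 ± 0.13, adjusted p = 0.0646). Gstm3 read 5.68, 5.95 and 6.24 in the corn oil controls and 6.68, 6.61 and 7.08 under benzofuran, a rise of 0.83 ± 0.17 (adjusted p = 0.0176) that was 0.69 ± 0.17 without animal 10 (adjusted p = 0.0952).

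Gstm4 and Gstm5 did not pass the test. Gstm4 read between 6.00 and 6.61 in the corn oil controls and between 6.47 and 6.92 under benzofuran, and the groups overlapped (0.43 ± 0.16, adjusted p = 0.156). Gstm5 read 7.89, 8.23 and 8.31 in the corn oil controls and 8.54, 8.37 and 9.20 under benzofuran. Its groups did not overlap, but animal 10 lay far above the other two, and the difference fell from 0.56 ± 0.17 to 0.31 ± 0.13 without it (adjusted p = 0.0883 and 0.357). Each of these 2 genes passed when 1 array was left out, Gstm4 without corn oil control 25 (0.61, adjusted p = 0.0473) and Gstm5 without benzofuran 8 (0.72, adjusted p = 0.0196). In 9 of the 10 members every benzofuran array lay above every corn oil array, beside 13.1% of all genes.

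Gstp1 read 11.79, 11.86 and 11.99 in the corn oil controls and 12.60, 12.54 and 12.54 under benzofuran. The treated animals were nearly identical, and the rise was 0.68 ± 0.09 (1.6-fold, adjusted p = 0.000491), with 0.69 ± 0.09 without animal 10. Gsto1 read 10.80, 11.34 and 11.12 in the corn oil controls and 11.58, 11.71 and 11.97 under benzofuran. It rose by 0.66 ± 0.15 (1.58-fold, adjusted p = 0.0367), but by 0.56 ± 0.16 without animal 10, where it was not called (adjusted p = 0.168). Leaving out corn oil control 22 ended the calls of Gsta4 (0.48), Gstm3 (0.69) and Gsto1 (0.52) as well. Leaving out control 24 ended those of Gsta4 (0.71, adjusted p = 0.0796) and Gstm3 (0.83, adjusted p = 0.0559), and control 25 that of Gsto1 (0.68, adjusted p = 0.0519).

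In the benzofuran lungs all 8 ciliated cell markers differed upwards and 2 passed the test, Tekt4 (0.83 ± 0.17) and Cfap126 (0.90 ± 0.17), of which 0 did without benzofuran 10. The mean of the list was 9.24 to 9.59 on benzofuran arrays and 8.68 to 9.03 on corn oil arrays. Of 7 fibroblast markers 2 fell, Col1a2 by 0.66 and Col3a1 by 0.65, with a list mean of 10.1 to 10.56 against 10.73 to 10.84, and 0 fell without benzofuran 10. Of 8 club cell markers 0 passed in limma (4 reached an unadjusted p under 0.05), with a list mean of 11.7 to 11.89 against 11.52 to 11.76. The part of these shifts in the transferase results was not tested.

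**Figure D2:**
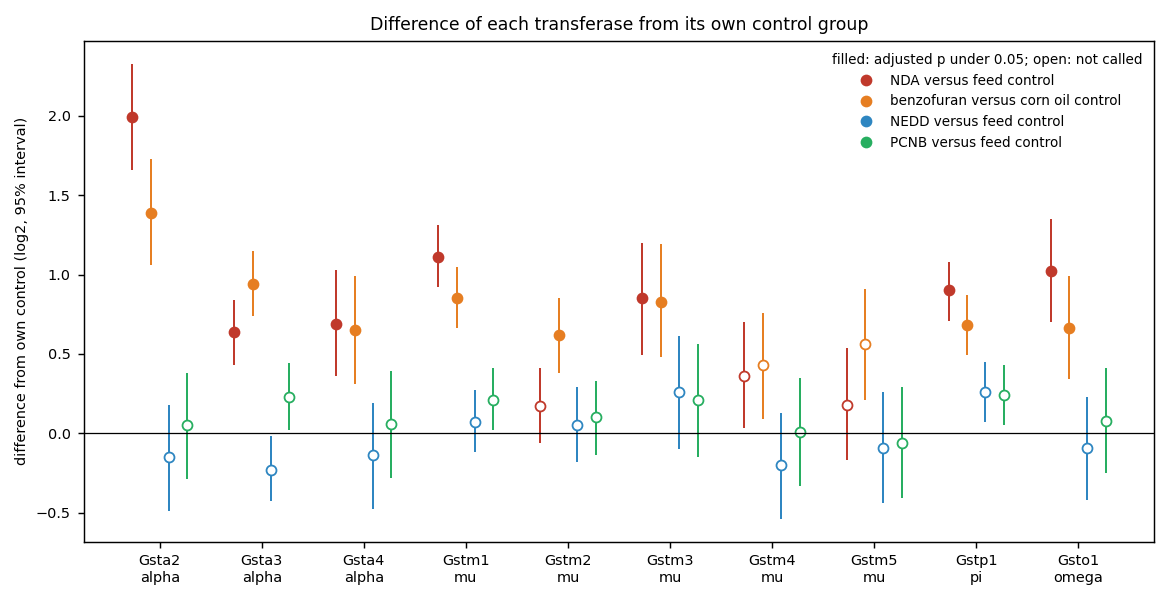
Difference of each transferase from its own control group (log2, vertical lines are 95% intervals) for NDA, NEDD and PCNB against feed control and benzofuran against corn oil control. Filled points have an adjusted p under 0.05, which holds for 7 NDA and 8 benzofuran points and for no NEDD or PCNB point.

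Under NEDD 0 of the 10 passed the test in limma, where 0.0223% of all genes were called. An unadjusted p under 0.05 was reached by 2 of them and by 9.44% of all genes. The differences ran from -0.23 for Gsta3 to 0.26 for Gstp1 and for Gstm3, with a median of -0.09. Gstp1 read 12.19, 12.00 and 12.17 under NEDD, each above the 3 feed controls, as in 7.23% of all genes. The difference was 0.26 ± 0.09 (adjusted p = 0.462), and with array weights it passed (0.30 ± 0.08, adjusted p = 0.0387). Gsta3 lay the other way. It read 10.43, 10.62 and 10.55 under NEDD, each below every feed control, as in 12.1% of all genes. The difference was -0.23 with a 95% interval of -0.43 to -0.02 (adjusted p = 0.5). Gsta2, the member that moved most under NDA, read 7.51, 7.48 and 7.67, in the range of its controls or just below it.

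PCNB gave 0 calls among the 10 in limma, where 0.0149% of all genes were called. An unadjusted p under 0.05 was reached by 3 of the 10 and by 2.97% of all genes. The differences were positive for 9 of the 10, beside 43.6% of all genes, and ran between -0.06 for Gstm5 and 0.24 for Gstp1 with a median of 0.09. This count rests on the probe sets used. For Gstm3 (0.21) and Gsto1 (0.08) the other probe set differed downwards, by -0.06 and -0.08. In Gsta3, Gstm1 and Gstp1 all 3 PCNB arrays lay above all feed controls, beside 3.67% of all genes. Gstm1 read 11.96, 11.99 and 11.95, a very narrow band above the controls (0.21, 95% interval 0.02 to 0.41). Gsta3 read 11.04, 11.03 and 10.91, and the difference was 0.23 with an interval of 0.02 to 0.44. Gstp1 read 12.05, 12.04 and 12.20, with an interval of 0.05 to 0.43. None of these is a call. In the same lungs Cyp1a1, the standard target of the aryl hydrocarbon receptor, rose by 3.23 under NEDD and by 3.70 under PCNB, and under NDA by 5.96. Under benzofuran it differed by 0.47 ± 0.44 and was not called. The NDA, NEDD and PCNB comparisons share the 3 feed control arrays, so that their values are not independent.

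The control groups themselves gave 0 calls among the 10 in limma when corn oil was set against feed, where 0% of all genes were called. An unadjusted p under 0.05 was reached by 1 member, Gsta3, and by 2.02% of all genes. Its corn oil arrays all lay below its feed arrays (-0.22), as did those of 4.91% of all genes. Of the 10 differences 8 were negative, and those of the other 9 genes ran from -0.18 for Gstm4 and -0.17 for Gsta2 to 0.15 for Gsto1.

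NDA and NEDD are both naphthalene amines and were given at the same feed concentration. NDA carries its amino groups directly on the ring system, whereas in NEDD a nitrogen on the ring is joined to an aminoethyl chain. This was the only pair of related compounds compared at a feed concentration matched in ppm and at a matched time. The match takes no account of the dihydrochloride in NEDD. The dose that each animal took in is not known here. Set directly against NEDD, NDA gave higher signals for 6 of the 10, beside 2.12% of all genes called and 1.88% called higher, and lower signals for none. The 6 were Gsta2, higher by 2.14 ± 0.16 (4.42-fold, adjusted p = 1.31e-07), Gsto1 by 1.12 ± 0.15 (2.17-fold, adjusted p = 0.000261), Gstm1 by 1.04 ± 0.09 (2.06-fold, adjusted p = 1.5e-06), Gsta3 by 0.87 ± 0.10 (adjusted p = 2.72e-05), Gsta4 by 0.84 ± 0.16 (adjusted p = 0.00565) and Gstp1 by 0.63 ± 0.09 (adjusted p = 0.000311). Each kept its call without any 1 of the 6 arrays. Cell type markers differed between these groups too. Marco was 4.57-fold higher under NDA (2.19 ± 0.16, adjusted p = 1.15e-07), and against feed control it had fallen by 1.04 under NEDD (adjusted p = 0.0292). All 8 ciliated cell markers were positive with a median of 0.47, of which Cfap126 was called (0.84 ± 0.17), and the list mean was 9.12 to 9.22 under NDA and 8.69 to 8.75 under NEDD. Ighm, Jchain and Mzb1 (3.94, 3.59 and 1.93) and the club cell markers Upk3a and Aldh1a7 (1.34 and 0.51) were called higher as well. Of the 8 club cell differences 4 were positive and 4 negative, with a median of 0.04. Of the 6 alveolar macrophage differences, that of Marco among them, 4 were negative, with a median of -0.08. The part of these markers in the transferase differences was not tested.

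The 4 members not called between the naphthalene amines were all of the mu class. For Gstm3 the NDA arrays, from 6.72, and the NEDD arrays, up to 6.47, did not overlap (0.59, interval 0.24 to 0.95, adjusted p = 0.0916). For Gstm4 the NDA arrays began at 6.60 and the NEDD arrays ended at 6.42 (0.57, interval 0.23 to 0.90, adjusted p = 0.0875). Both passed with array weights (0.61 and 0.47), with the actin covariate (0.63 and 0.60) and in a fit on these groups alone. Gstm2 differed by 0.12 with an interval of -0.11 to 0.36, and Gstm5 by 0.27 with an interval of -0.08 to 0.62. In 9 of the 10 members, all but Gstm2, no NEDD array reached an NDA array, beside 13.2% of all genes.

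The effects of NDA and benzofuran, each against its own control and at different doses and routes, were also subtracted from each other. No member was called in limma, where 0.29% of all genes were. An unadjusted p under 0.05 was reached by 3 members and by 9.34% of all genes. The values side by side were 1.99 and 1.39 for Gsta2, 0.64 and 0.94 for Gsta3, and 0.17 and 0.62 for Gstm2, which are the 3 just counted. Their differences of effects were 0.60 (interval 0.12 to 1.07), -0.31 (-0.60 to -0.01) and -0.44 (-0.78 to -0.11). For Gsta2 the difference was called without benzofuran 10 (0.85 ± 0.15, adjusted p = 0.0185), with array weights (0.73) and with the actin covariate (0.94). For Gsta4 the effects differed by 0.04 (interval -0.43 to 0.52), for Gstm3 by 0.01 (-0.49 to 0.52) and for Gstm4 by -0.07 (-0.54 to 0.41). The call of Gstm2 under benzofuran and its lack under NDA are therefore not shown to differ.

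**Figure D3:**
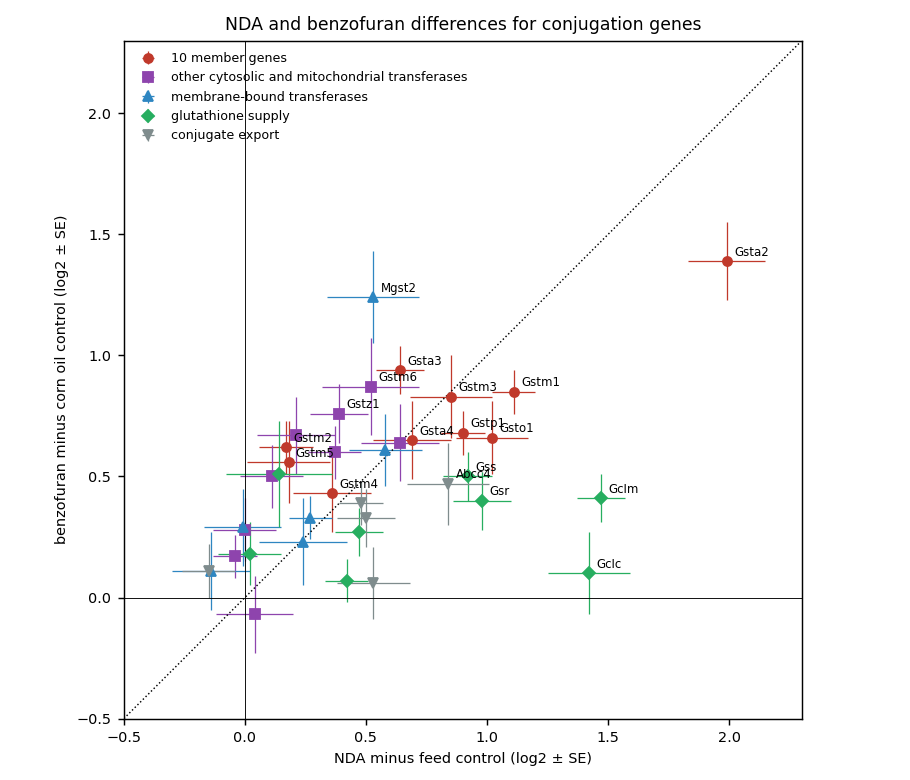
NDA minus feed control (horizontal) against benzofuran minus corn oil control (vertical), both log2 with bars of 1 SE, for the 10 transferases and 4 lists of other conjugation genes, with a dotted line where both are equal. The 10 red points lie on both sides of the line, with Gsta2 farthest out at 1.99 and 1.39, while Gclc and Gclm lie far to the right at 1.42 and 1.47 on the NDA axis and 0.10 and 0.41 on the benzofuran axis.

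The contrast that the study turns on sets the average effect of NDA and benzofuran against the average effect of NEDD and PCNB, each from its own control. It called 7 of the 10 higher, beside 3.49% of all genes called and 3.16% called higher, with a median of 0.66 against 0.03. Gsta2 led with 1.74 ± 0.14 (3.35-fold, adjusted p = 8.49e-07). It was followed by Gsto1 (0.85 ± 0.13, adjusted p = 0.0013), Gstm1 (0.84 ± 0.08, adjusted p = 8.14e-06), Gsta3 (0.79 ± 0.09, adjusted p = 3e-05) and Gsta4 (0.71 ± 0.14, adjusted p = 0.00636). Gstm3 (0.61 ± 0.15, adjusted p = 0.0249) and Gstp1 (0.54 ± 0.08, adjusted p = 6e-04) completed the 7. Gstm2 (0.32, adjusted p = 0.0794), Gstm4 (0.49, adjusted p = 0.0603) and Gstm5 (0.44, adjusted p = 0.104) were positive without passing. The same 7 were called without benzofuran 10. Leaving out 1 array of the 18 in turn, the other 6 kept their calls in all 18 fits. The call of Gstm3 was lost without corn oil control 22 (0.54), feed control 27 (0.53), NEDD 12 (0.60) or 14 (0.56), or NDA 2 (0.59) or 5 (0.60). Gstm2 passed without benzofuran 6 (0.36), Gstm4 without corn oil control 25 (0.58) or benzofuran 8 (0.54), and Gstm5 without benzofuran 8 (0.53).

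Cell type markers were called in the same contrast. Of 8 ciliated cell markers 4 were higher, Foxj1 by 0.73, Tekt4 by 0.66, Rsph1 by 0.62 and Cfap126 by 0.92, and the median of the list was 0.55. The mean of that list was 9.12 to 9.22 under NDA and 9.24 to 9.59 under benzofuran, and it was 8.69 to 8.75 under NEDD and 8.79 to 8.98 under PCNB. Of 8 club cell markers 3 were higher (Upk3a by 0.83, Cckar by 0.45 and Aldh1a7 by 0.44). The differences of 3 of the 8 were negative, down to -0.59, and the median was 0.12. Of 6 B and plasma cell markers 3 were higher (Ighm by 1.61, Jchain by 1.70 and Mzb1 by 1.02). They had risen under NDA. Under benzofuran 0 of the 6 passed, with differences between -0.27 and 0.20. Of 6 alveolar macrophage markers Marco alone was higher (1.00), while 3 differences were negative and the median was 0.05. Marco had risen under NDA and fallen under NEDD, and its mean was 7.69 under benzofuran and 7.65 in the corn oil controls. Cldn18 of alveolar type 1 cells (-0.38) and the collagen gene Col1a2 (-0.52) were lower. The same markers were called without benzofuran 10, and their part in the contrast was not tested.

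The same 7 transferases were those in which the 6 NDA and benzofuran arrays all lay above the other 12, beside 1.44% of all genes. The gap was widest in Gsta2, whose lowest treated array read 8.51 and whose highest other array read 7.85. It was 12.53 against 11.99 in Gstm1 and 12.54 against 12.20 in Gstp1. In Gsta4 (10.89 against 10.75) and Gstm3 (6.61 against 6.47) it was narrow. In Gstm5 and Gstm2 it closed, at 8.37 against 8.40 and at 10.80 against 10.90, and in Gstm4 at 6.47 against 6.62.

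In all 10 members NDA and benzofuran held the highest 2 group means. NDA came first in Gsta2, Gsta4, Gstm1, Gstm3, Gstm4, Gstp1 and Gsto1 and benzofuran in Gsta3, Gstm2 and Gstm5. Their arrays did not overlap in Gsta2, where NDA began at 9.57 and benzofuran ended at 9.43, in Gstm1 (12.75 and 12.59) and in Gstp1 (12.69 and 12.60). In Gstm2 the order was turned, with NDA ending at 11.05 and benzofuran beginning at 11.14. In the other 6 their arrays overlapped. These are signals as read, between groups that differ in route, vehicle and days of dosing. With each effect taken from its own control, no member was called as different between the chemicals in the main fit. Shares of all genes with such orders are not given here. Below NDA and benzofuran the order of the remaining groups differed from gene to gene, and neighbouring means mostly lay within the spread of their arrays. In Gsta2 those 4 groups ran from 7.53 ± 0.12 (SD, n = 3) for corn oil through 7.55 ± 0.11 for NEDD and 7.71 ± 0.09 for feed to 7.75 ± 0.08 for PCNB. In Gsta3 the PCNB arrays, at 10.99 ± 0.07, lay above all arrays of feed (10.76 ± 0.09), corn oil (10.54 ± 0.12) and NEDD (10.53 ± 0.10).

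Other probe sets of the members, tested among all probe sets, had the same sign under NDA and under benzofuran as the ones used. Under PCNB those of Gstm3 and Gsto1 had the opposite sign, and so did that of Gstm3 under NEDD (-0.06 against 0.26). The other probe set of Gsta3 rose by 0.65 ± 0.13 under NDA and 0.80 ± 0.13 under benzofuran. Gstm1 had 3 others, which rose by 0.78, 1.18 and 1.33 under NDA, and of which 2 rose under benzofuran (0.93 and 0.99) while the third missed the threshold (0.65 ± 0.14, adjusted p = 0.0525). For Gstm3 the other probe set differed by 0.61 ± 0.17 and 0.69 ± 0.17 and for Gsto1 by 0.79 ± 0.22 and 0.53 ± 0.22, in the same direction but without passing. Gsta2, Gsta4, Gstm2, Gstm4, Gstm5 and Gstp1 had no other probe set that names them alone.

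The mu class genes lie side by side on chromosome 3, in the order Gstm5, Gstm7, Gstm6, Gstm3, Gstm2, Gstm1 and Gstm4 on GRCm38.p6. The differences did not follow that order. Under NDA the called genes Gstm3 (0.85) and Gstm1 (1.11) flank Gstm2 (0.17). Gstm7, a mu class gene outside the 10, stayed near 0 under both, with 0.04 ± 0.16 for NDA and -0.07 ± 0.16 for benzofuran. Gstm6, its neighbour, differed by 0.52 ± 0.20 under NDA without passing and rose by 0.87 ± 0.20 under benzofuran.

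**Figure D4:**
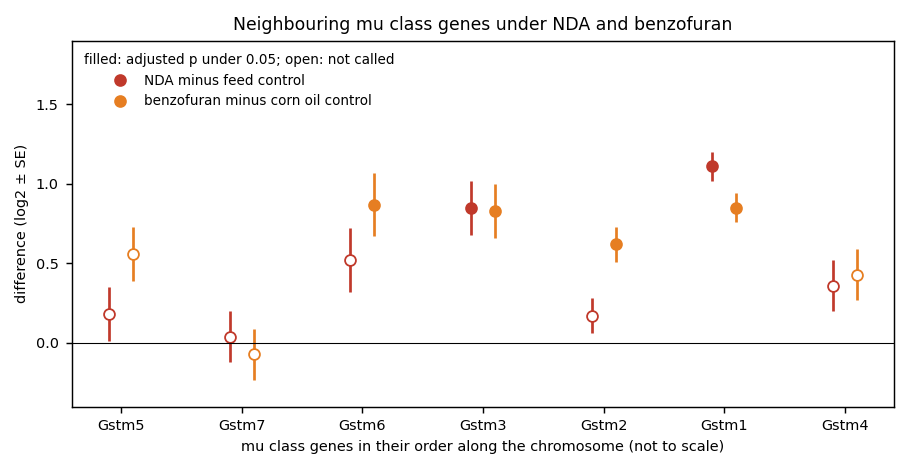
Differences under NDA and benzofuran (log2, bars of 1 SE) for the 7 mu class genes in their order along chromosome 3, not to scale. Filled points have an adjusted p under 0.05. Gstm3 and Gstm1 are filled for both chemicals, and Gstm2 between them is filled for benzofuran alone, at 0.62 against 0.17 for NDA.

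Of 9 other cytosolic and mitochondrial transferases tested 0 passed under NDA in limma (4 with an unadjusted p under 0.05, median 0.21), and Gstp3, a pi class neighbour of Gstp1, came nearest (0.64 ± 0.16, adjusted p = 0.0518). Under benzofuran 5 of the 9 rose, with a median of 0.60. These were Gstm6, Gstp3 (0.64 ± 0.16), the theta class genes Gstt2 (0.60 ± 0.11) and Gstt3 (0.67 ± 0.16), and Gstz1 (0.76 ± 0.12), the zeta class enzyme that also acts in the breakdown of tyrosine. Without benzofuran 10 the count was 2, Gstt2 and Gstz1. The kappa class gene Gstk1 differed by 0.11 ± 0.13 under NDA and 0.50 ± 0.13 under benzofuran and passed under neither. None of the 9 differed between the effects of the chemicals, where 2 had an unadjusted p under 0.05.

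Of 6 membrane-bound transferases and relatives, a separate family with glutathione activity, 0 passed under NDA in limma (3 reached an unadjusted p under 0.05). Under benzofuran Mgst2 rose by 1.24 ± 0.19 (2.36-fold, adjusted p = 0.00256) and Mgst3 by 0.61 ± 0.15, of which Mgst2 alone was called without benzofuran 10. Mgst1, an enzyme of the endoplasmic reticulum and outer mitochondrial membrane, differed by 0.27 ± 0.09 under NDA and 0.33 ± 0.09 under benzofuran without passing.

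Of 8 genes of glutathione supply 6 rose under NDA, with a median of 0.69. Gclc and Gclm encode the catalytic and the modifier subunit of glutamate-cysteine ligase, the first step of glutathione synthesis, and rose by 1.42 ± 0.17 and 1.47 ± 0.10. Gss, which completes it, rose by 0.92 ± 0.10, and Gsr, which regenerates reduced glutathione, by 0.98 ± 0.12. The amino acid transporter genes Slc3a2 and Slc1a4 rose by 0.47 and 0.42. Under benzofuran 1 of the 8 rose, Gss by 0.50 ± 0.10, and 0 did without benzofuran 10. All 8 differences were positive with and without that array, and with it 5 reached an unadjusted p under 0.05. Gclc read 10.25, 10.60 and 10.61 in the corn oil controls and 10.67, 10.85 and 10.23 under benzofuran. The groups overlapped only through benzofuran 10, which read 10.23, while animals 6 and 8 lay above every control. The effect on Gclc was larger under NDA than under benzofuran by 1.33 ± 0.24 (adjusted p = 0.0161), and that on Gclm by 1.06 ± 0.15 (adjusted p = 0.00181). Neither value is given here without benzofuran 10. For none of the 10 transferases was a difference of effects called in the main fit. That of Gsta2 was called without benzofuran 10 (0.85 ± 0.15, adjusted p = 0.0185), with array weights and with the actin covariate.

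Of 5 tested exporters of glutathione conjugates 3 rose under NDA, Abcc4 by 0.84 ± 0.17, Abcc1 by 0.50 ± 0.12 and Abcc3 by 0.48 ± 0.09. Under benzofuran Abcc3 alone rose (0.39 ± 0.09), and 0 did without benzofuran 10. Of 10 genes that trim conjugates to mercapturates, such as the gamma-glutamyl transferase Ggt5 (0.09 under NDA, -0.05 under benzofuran), 0 passed in any comparison in limma, with 0 unadjusted p-values under 0.05 for NDA and 2 for benzofuran. Nqo1, the quinone reductase often read as a reporter of NRF2, rose by 3.10 ± 0.19 under NDA and 2.15 ± 0.19 under benzofuran. It was 1 of 9 tested references for NRF2 and receptor signalling, of which 6 rose under NDA. The others were Cyp1a1, Cyp1b1 (1.69 ± 0.21), and Txnrd1 (1.54 ± 0.10), Srxn1 (1.62 ± 0.15) and Hmox1 (1.53 ± 0.18), which encode thioredoxin reductase, sulfiredoxin and heme oxygenase. Under benzofuran Txnrd1 rose by 0.48 ± 0.10 beside Nqo1, and Nqo1 alone was called without benzofuran 10. These lists were written with earlier results on these arrays known, and their counts are descriptions.

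The members were left out of the rankings that follow, and distances between members are not given here. Of the other genes, those nearest to Gsta2 in course over the 18 arrays were Acox2, Cbr3, Gpx2, Cxcl17 and Ghrl. The root mean square distance of their deviations from their own means was 0.183, 0.196, 0.212, 0.27 and 0.275 log2 units. The median over all genes was 0.853, and Gsta2 itself varied by 0.842. Cbr3, a carbonyl reductase, rose by 2.09 ± 0.17 under NDA and 1.00 ± 0.17 under benzofuran. Gpx2, a glutathione peroxidase of epithelia, rose by 2.45 and 1.68. Gstm1 varied by 0.446. Its nearest genes outside the members were Cbr1 at 0.125, Gss at 0.152, Susd2 at 0.153, Blvrb at 0.157 and Ephx1 at 0.161. The median for Gstm1 was 0.473. Cbr1, another carbonyl reductase, rose by 1.17 ± 0.11 and 0.81 ± 0.11. Ephx1, the microsomal epoxide hydrolase, rose by 0.79 ± 0.08 and 0.54 ± 0.08. These distances describe 18 arrays that share 6 groups and carry no test.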

How the data were processed

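Total RNA of the right lung lobe, 10 µg per animal, was hybridised to Affymetrix arrays, 1 animal per array, per the labels. The authors deposited log2 values for 45101 probe sets. The base was judged from their range of 2.48 to 14.78, and how the values were summarised and normalized is not given in the sources used here. No further scaling was applied, and detection calls were not used here. The platform annotation gave 34945 probe sets 1 gene symbol, 932 several and 9160 none, beside 64 controls, and 34741 matched RefSeq genes of GRCm38.p6 by gene ID. No build is named for the array, so coordinates are those of the RefSeq promoters alone.

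A gene was tested if its probe set lay above the 40th percentile of its array on at least 3 arrays (13434 of 18193). The model, in limma 3.58.1 under R 4.3.3, had 1 mean per group and used all 18 arrays (12 residual degrees of freedom), with two-sided p-values adjusted by Benjamini-Hochberg over genes in each of 8 comparisons. With 3 arrays a side an exact permutation test cannot go below p = 0.1. The procedure was tested on simulated data. The arrays limit precision by their number, 3 per group. The labels name no batch.

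All 10 members are named, and from each pathway list the genes called and up to 4 others. Single cell type markers were named after their values were seen. The members and lists were chosen with earlier results of these data known. Alternatives were another scaling, filter, probe set rule, model or sample set and leaving out each array, and list counts without benzofuran 10 were added after seeing the data.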

Additional observations from a re-analysis of the deposited data

Results flagged for a closer look

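A difference between the effects of the chemicals, tested as NDA minus feed control less benzofuran minus corn oil control, was called for 2 genes of the glutathione supply list. Gclc differed by 1.33 ± 0.24 (adjusted p = 0.0161), with 12.05 under NDA against 10.63 in feed controls and 10.58 under benzofuran against 10.49 in corn oil controls. Gclm differed by 1.06 ± 0.15 (adjusted p = 0.00181), with 10.41 against 8.94 and 9.54 against 9.13. All 3 NDA arrays lay above all feed controls in both genes. Under benzofuran Gclm did so against corn oil too, without passing the test (0.41 ± 0.10, adjusted p = 0.055). The differences of effects are not given here without benzofuran 10, whose array read 10.23 for Gclc.
The same difference was called for 4 induction references, Cyp1a1 (5.48 ± 0.62, adjusted p = 0.000232), Cyp1b1 (1.51 ± 0.30, adjusted p = 0.0328), Txnrd1 (1.06 ± 0.14, adjusted p = 0.000831) and Srxn1 (1.04 ± 0.21, adjusted p = 0.0424). It was also called for 4 cell type markers, Upk3a of club cells (1.07 ± 0.19, adjusted p = 0.0136), Marco of alveolar macrophages (1.12 ± 0.23, adjusted p = 0.0411) and Ighm (3.87 ± 0.68, adjusted p = 0.0137) and Jchain (3.42 ± 0.68, adjusted p = 0.0352) of B and plasma cells.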

How the results depend on the processing

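No paired analysis was possible because no animal number occurs in more than 1 group. Of the counts of members called, those for PCNB (0) and for corn oil against feed (0) did not change under any alternative. For NDA against feed control (7) the count was 6 or 7 under other scalings, filters and models, and 5 to 6 when 1 array was left out. For NDA against NEDD (6) it was 6 to 8, and 6 without any 1 array. For the contrast of positive and negative chemicals (7) it was 6 to 10, and 6 to 9 without 1 array. For benzofuran (8, beside 233 of all 13434 genes) it was 0 in a fit on its 2 groups alone, where 5 of all genes were called. Under the other settings it was 6 to 10. When 1 array was left out it ran from 4 (without corn oil control 22, 37 of all genes called) to 9 (without benzofuran 8, 1054 called). Without benzofuran 10 it was 5, where 67 of all genes were called. For NEDD (0) it was 1 with array weights, and 0 without any 1 array. For the NDA effect minus the benzofuran effect (0) it was 1 with array weights and 1 with the actin covariate, and between 0 and 1 without 1 array. The cause of these changes was not tested. No called member changed direction under any alternative.

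Single calls were lost for Gsta4 under NDA when arrays were centred on their median (adjusted p = 0.065) or all probe sets were tested (0.0611). Under benzofuran Gsta4 was lost with quantile normalization (0.0689), without a filter (0.0511) and over all probe sets (0.08), and Gsto1 with quantile normalization (0.0512), over all probe sets (0.0687) and with the mean of its probe sets (0.0777). Gstm3 in the contrast of positive and negative chemicals was lost over all probe sets (0.052). Array weights raised the number of all genes called in that contrast from 469 to 1873, under benzofuran from 233 to 1149, under NDA from 184 to 755 and under NEDD from 3 to 521. With 3 arrays per group, and 1 benzofuran array apart from the rest, the calls of Gsta4 and Gstm3 under both chemicals and of Gstm2 and Gsto1 under benzofuran were among those lost when 1 array was left out.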
